A study of Mus musculus with 2 samples.

Results

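The genes described here are 36 members of the antioxidant defence, namely the transcription factor NRF2 (Nfe2l2), its inhibitor Keap1, genes that NRF2 activates, and the enzymes that handle glutathione, thioredoxin, superoxide and peroxides. Each gene is read by probe sets, spots of short DNA probes for a transcript, and those that the platform annotation assigns to a single gene on this list were taken. This rule found 69 of the 45101 probe sets of the arrays and 32 of the 18193 genes with such a probe set. Prdx1 has only probe sets that it shares with another gene, and Prdx5, Prdx6 and G6pdx were not analysed here. The signals came from pooled RNA of dissected air pouch membranes of female Balb/C mice, 6-8 weeks old. Per the labels, the pouch was raised with 2 ml air under the back skin and crystals or vehicle were given on day 7. The methods of the study describe another air volume and another day. The membrane that comes to line the pouch serves as a model of the synovial lining. The MSU pool came from 3 mice injected with 2 mg monosodium urate (MSU) crystals, the crystals of gout, in 1 ml PBS, and the control pool from 3 mice injected with 1 ml PBS alone. Both were dissected 9 h after the injection, and each pool was hybridized to 1 array. The mice carried no engineered allele named in the labels. Pooling hides differences between mice, and per the study's methods a dissected membrane can keep traces of nearby fat and muscle.

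There were thus no replicates, no test between the pools was possible, and every value describes these 2 pools alone. The deposited values are linear signals that the authors scaled to the same trimmed mean on both arrays. The number of probe sets that the study called detected on each array was counted down from the brightest signal, and the last signal reached served as the detection floor, which was 74.1 on the MSU array and 64.6 on the control array. A ratio is called a fold where both signals reach their floor, and a bound ("at least") against the floor where only the brighter does. A gene with a fold or a bound is called measured, and where a gene has several probe sets the brightest by mean log2 signal stands for it. Signals of different genes come from different probes and are not set against each other. The only spread in these data is that between probe sets of the same gene on the same arrays, with a pooled SD of 0.33 on the log2 scale over 4002 genes, which holds no variation between mice. Scaling the arrays on the hybridization spike-ins, control RNAs added at hybridization, in place of the authors' scaling lowers each log2 ratio by 0.46, so that smaller ratios above 0 then turn.

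NRF2 is a transcription factor that KEAP1 marks for degradation in resting cells. Oxidants and electrophiles modify cysteines of KEAP1, NRF2 then accumulates, pairs with a small MAF protein and binds antioxidant response elements in genes for glutathione synthesis, thioredoxin reduction, quinone reduction and haem breakdown. Neutrophils and macrophages that meet urate crystals release superoxide, which superoxide dismutases convert to hydrogen peroxide. Catalase splits the peroxide without a reductant, whereas glutathione peroxidases and peroxiredoxins reduce it at the expense of glutathione or thioredoxin, and in the end of NADPH.

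The members divided in direction. In the MSU pool the cystine importer Slc7a11 and the mitochondrial superoxide dismutase Sod2 were higher by 2-fold or more, and Nfe2l2, Txnrd1, Hmox1 and Sesn2 were between 1.5-fold and 2-fold higher. Prdx2, Prdx4 and Gpx1, which remove peroxides, were at least 2-fold lower, Prdx4 only on the brightest of its 3 probe sets with a fold. The other glutathione peroxidases, the measured glutathione S-transferases on the list and catalase were also lower. Of 30 measured members, 28 with a fold and 2 with a bound, 2 (6.67%) were at least 2-fold higher, against 3.70% of all 11155 measured genes, and 3 (10%) were at least 2-fold lower, against 4.29% of all measured genes. At 1.5-fold, 6 members were higher and 11 lower, beside 8.65% and 14.4% of all measured genes. Over the 28 folds of members the median log2 ratio was -0.42, and over all 10045 genes with a fold it was -0.05. In 6 of these 28 members the log2 ratio was smaller in size than the pooled SD between probe sets (Keap1, Gclc, Gclm, Txn1, Prdx3 and Pgd), 7 were higher by more than this and 15 were lower by more than this. Of all genes with a fold, 54.3% lay within this SD.

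**Figure D1:**
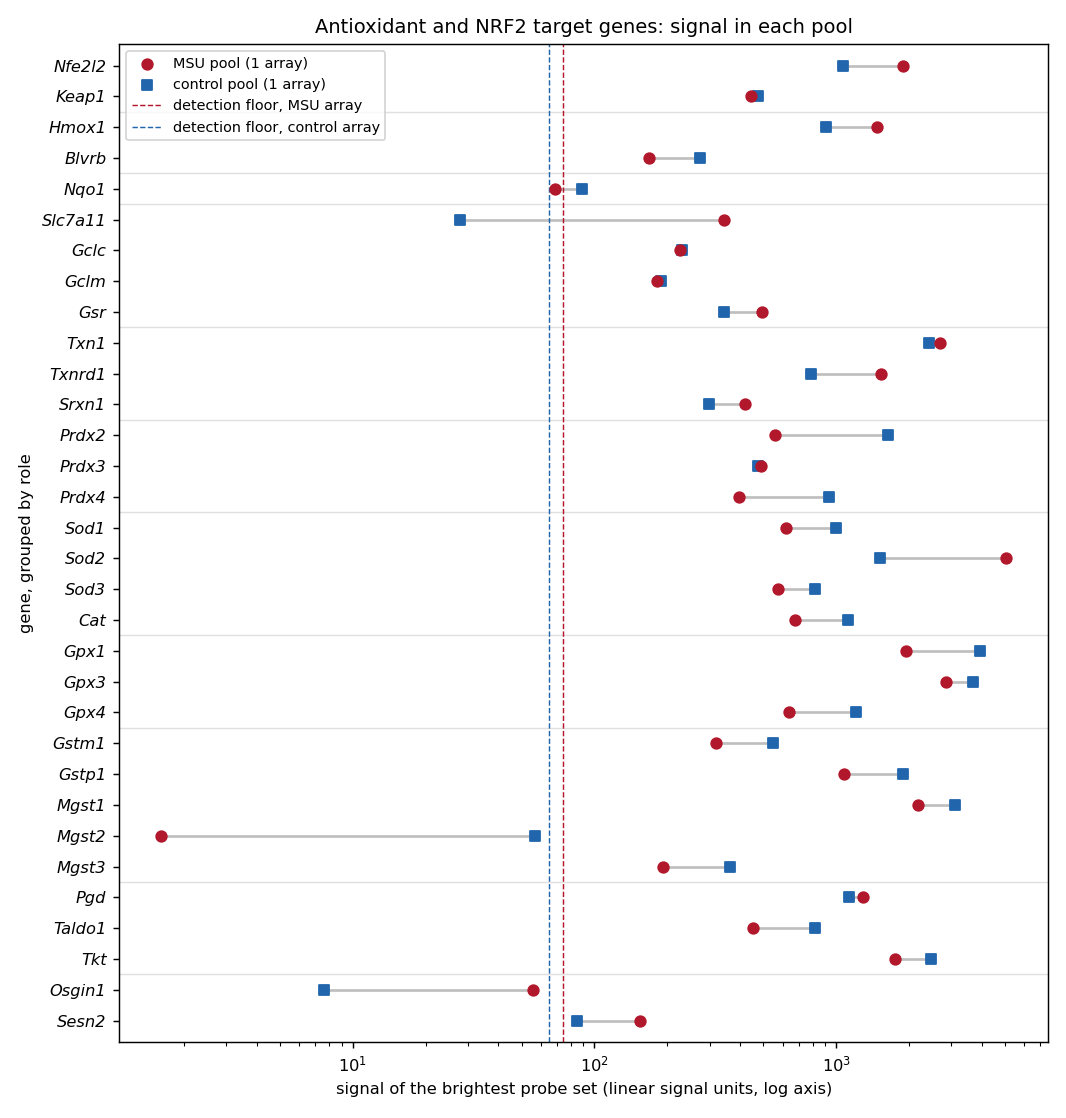
Signal of the brightest probe set of each of the 32 members (y axis, grouped by role) in the MSU pool (red circles) and the control pool (blue squares), 1 array per pool, on a log axis of linear signal units with the detection floors dashed (74.1 and 64.6). Slc7a11 is above the floor in the MSU pool and below it in the control pool, Sod2 is at 5053 in the MSU pool and 1512 in the control pool, and most peroxidases and transferases lie further left in the MSU pool.

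The transcript of NRF2 was higher in the MSU pool and that of its inhibitor was level. Nfe2l2 had a signal of 1883 in the MSU pool and 1063 in the control pool, which is 1.77-fold higher. Its other probe set lay below both floors. Keap1, the adaptor that hands NRF2 to a ubiquitin ligase, had signals of 446 and 476 in the MSU and control pools (log2 ratio -0.10), and its other probe set gave -0.04. Among 10 further regulators of NRF2 listed, 9 were measured. By 2-fold or more 1 was higher and 1 lower, beside 3.70% and 4.29% of all measured genes. The higher one was the small MAF protein Maff, with 185 in the MSU pool against 49.9 in the control pool, below the floor there, and so at least 2.86-fold higher. Its relatives Mafg and Mafk, which also pair with NRF2, were 1.62- and 1.16-fold higher. The direction of Mafk turns under scaling on the spike-ins and that of Mafg does not. The lower one was Park7, a redox-sensitive protein known to stabilize NRF2, at 331 in the MSU pool and 847 in the control pool, or 2.56-fold lower, and 2.70-fold lower on its other probe set. Bach1, a repressor that competes with NRF2, had 735 in the MSU pool and 591 in the control pool on its brightest probe set, a log2 ratio of 0.32 that turns under scaling on the spike-ins. Its other probe set had 341 in the MSU pool and 159 in the control pool, 2.14-fold higher, a direction that does not turn. The ligase subunit Cul3 had a log2 ratio of -0.03, and its 5 probe sets lay between -0.13 and 0.25.

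Cystine import stood out among the steps of glutathione synthesis, whereas the ligase of its first step was level. Slc7a11 encodes xCT, the cystine carrier that limits glutathione synthesis in many cells. It had a signal of 344 in the MSU pool and 27.8 in the control pool, below the floor there, and was at least 5.33-fold higher, with a plain ratio of signals of 12.4. Its other probe set had 179 in the MSU pool and 8.84 in the control pool, at least 2.76-fold higher. Both probe sets thus reached the floor in the MSU pool and missed it in the control pool. The partner chain of xCT, Slc3a2, was at 1445 in the MSU pool and 1058 in the control pool, with a log2 ratio of 0.45 that turns to just below 0 under scaling on the spike-ins. In contrast, the catalytic (Gclc) and modifier (Gclm) subunits of glutamate-cysteine ligase, the rate-limiting enzyme, which joins glutamate to cysteine, had log2 ratios of -0.02 and -0.05. Gclc was at 226 in the MSU pool and 230.0 in the control pool, and Gclm at 182 and 188. The other probe set of Gclc gave 0.09, and the sign for Gclc turns under quantile normalization. Glutathione synthetase (Gss), which adds glycine to complete glutathione, had 164 in the MSU pool and 187 in the control pool, a log2 ratio of -0.19, and -0.01 on its other probe set. Glutathione reductase (Gsr), which returns oxidized glutathione to its reduced form, was 1.44-fold higher, with 495 in the MSU pool and 345 in the control pool, and 0.64 on the log2 scale on its other probe set.

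Haem breakdown and quinone reduction are both classical NRF2 outputs. The members of haem breakdown differed in direction, and the gene of quinone reduction lay near the floor. Haem oxygenase 1 (Hmox1), which opens the haem ring, was 1.63-fold higher, at 1482 in the MSU pool and 911 in the control pool. Biliverdin reductase B (Blvrb) was 1.64-fold lower, at 168 in the MSU pool and 274 in the control pool. The quinone reductase Nqo1 lay near the floor in both pools, with 68.8 in the MSU pool, below the floor, and 88.7 in the control pool, at least 1.20-fold lower. A further list holds other NRF2 targets and related haem genes, among them the other haem oxygenase Hmox2 (1.43-fold lower). Of its 11 measured genes, 1 was higher and 1 lower by 2-fold or more, beside 3.70% and 4.29% of all measured genes. The exporter of glutathione conjugates Abcc1 was 2.13-fold higher, at 610 in the MSU pool and 286 in the control pool, and 1.94-fold higher on its other probe set. The iron store Fth1 had a signal of 9604 in the MSU pool and 5907 in the control pool, 1.63-fold higher, and a log2 ratio of 0.45 on its other probe set. The probe sets of the haem transporter Slc48a1 disagreed, with 527 in the MSU pool and 350 in the control pool on the brighter (log2 ratio 0.59) and 300.4 and 438 on the other (-0.54). The epoxide hydrolase Ephx1 was 2.00-fold lower, Cbr1, a carbonyl reductase, 1.98-fold lower, and the aldehyde oxidase Aox1 1.83-fold lower. The median log2 ratio of these 11 genes was -0.43.

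In the thioredoxin system the reductase was higher and thioredoxin level. Txnrd1 is the selenoenzyme that keeps cytosolic thioredoxin reduced with NADPH. It had 1536 in the MSU pool and 790 in the control pool, 1.94-fold higher and just short of 2-fold. A further probe set had 339 and 126 in the MSU and control pools, 2.69-fold higher, and the third had 99.0 and 51.0, at least 1.53-fold higher. All 3 probe sets of Txnrd1 thus pointed the same way. Sulfiredoxin (Srxn1), which repairs overoxidized peroxiredoxins, had 421 in the MSU pool and 297 in the control pool (log2 ratio 0.50), and its 4 probe sets ranged between 0.28 and 0.76. Under scaling on the spike-ins this log2 ratio of Srxn1 was 0.05. Thioredoxin (Txn1) was at 2678 in the MSU pool and 2431 in the control pool, a log2 ratio of 0.14 that turns to -0.32 under scaling on the spike-ins. Of 13 other thioredoxin and repair genes, all measured, none was at least 2-fold higher and 1, the methionine sulfoxide reductase Msrb3, was at least 2-fold lower, at 2.25-fold. Over all measured genes the shares were 3.70% and 4.29%. The other probe set of Msrb3 was 1.36-fold lower, and over the median of both the size of 2-fold was not reached. The largest ratio upwards in that list was that of Txnl1, a thioredoxin-like protein, a log2 ratio of 0.12 that turns under scaling on the spike-ins and on its other 2 probe sets with a fold (-0.17 and -0.74). The mitochondrial reductase Txnrd2 had a log2 ratio of -0.33 and mitochondrial thioredoxin Txn2 one of -0.24.

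The start regions of some of these genes are shown because several members known as NRF2 targets were higher together while others were level or lower. The antioxidant response element core was searched as TGACNNNGC on both strands of RefSeq windows of 300 bases, 250 before and 50 from the start site on (mouse build GRCm38.p6). Of 36 members, 31 have such windows, 6 of them more than 1, and 10 of their 40 windows (25.0%) held the core, against 12.4% of all 32851 windows. These 10 lie at Nfe2l2, Txnrd1, Srxn1, Sesn2, Pgd, Gclm, Sod1, Mgst1, Prdx1 and G6pdx, and so at members that were higher, level and lower. The AP-1 site TGANTCA was found in 5 of 40 member windows (12.5%) and 7.81% of all windows, and an NF-kappaB site by its consensus in 2 of 40 (5.00%) and 4.51%. At Prdx1 the antioxidant response element match overlaps an AP-1 match. The match in each window is in capitals, on the plus or the minus strand of the window, and is an NF-kappaB match for Sod2 and an antioxidant response element match for the others. AP-1 matches that begin at bases -102 and -45 in the Srxn1 window are left in lower case. A match is a description of these letters and not a site shown to be bound.
Nfe2l2, chr2:75704614-75704913, minus strand: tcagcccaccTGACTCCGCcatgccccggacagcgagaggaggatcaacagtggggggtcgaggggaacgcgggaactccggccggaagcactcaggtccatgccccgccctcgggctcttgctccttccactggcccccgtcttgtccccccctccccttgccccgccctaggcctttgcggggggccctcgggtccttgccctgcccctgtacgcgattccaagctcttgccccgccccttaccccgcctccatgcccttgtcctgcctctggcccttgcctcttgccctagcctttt
Txnrd1, chr10:82858956-82859255, plus strand: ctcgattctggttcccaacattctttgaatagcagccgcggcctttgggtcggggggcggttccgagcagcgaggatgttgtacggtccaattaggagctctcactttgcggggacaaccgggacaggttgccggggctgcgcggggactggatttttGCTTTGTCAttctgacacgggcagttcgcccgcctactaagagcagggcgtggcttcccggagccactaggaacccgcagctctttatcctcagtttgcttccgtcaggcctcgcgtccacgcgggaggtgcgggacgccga
Srxn1, chr2:152105274-152105573, plus strand: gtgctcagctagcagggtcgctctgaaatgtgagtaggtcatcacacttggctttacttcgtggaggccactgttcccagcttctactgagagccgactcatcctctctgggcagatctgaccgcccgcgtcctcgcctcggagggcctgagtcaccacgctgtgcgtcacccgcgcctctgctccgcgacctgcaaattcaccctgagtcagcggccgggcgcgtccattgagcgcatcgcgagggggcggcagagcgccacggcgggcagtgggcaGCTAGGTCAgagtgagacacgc
Gclm, chr3:122245307-122245606, plus strand: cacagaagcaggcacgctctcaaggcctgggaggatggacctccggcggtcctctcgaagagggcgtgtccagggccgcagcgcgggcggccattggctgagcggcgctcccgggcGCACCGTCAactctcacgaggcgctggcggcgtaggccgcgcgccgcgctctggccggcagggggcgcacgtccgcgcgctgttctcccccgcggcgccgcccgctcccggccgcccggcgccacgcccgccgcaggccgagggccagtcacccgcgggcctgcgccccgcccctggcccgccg
Sod1, chr16:90220512-90220811, plus strand: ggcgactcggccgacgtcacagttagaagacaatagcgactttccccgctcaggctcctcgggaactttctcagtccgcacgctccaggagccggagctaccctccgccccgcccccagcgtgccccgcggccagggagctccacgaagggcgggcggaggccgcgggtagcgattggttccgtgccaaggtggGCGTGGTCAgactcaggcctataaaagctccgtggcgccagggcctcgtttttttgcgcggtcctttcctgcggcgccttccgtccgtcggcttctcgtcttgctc
Sod2, chr17:13007589-13007888, plus strand: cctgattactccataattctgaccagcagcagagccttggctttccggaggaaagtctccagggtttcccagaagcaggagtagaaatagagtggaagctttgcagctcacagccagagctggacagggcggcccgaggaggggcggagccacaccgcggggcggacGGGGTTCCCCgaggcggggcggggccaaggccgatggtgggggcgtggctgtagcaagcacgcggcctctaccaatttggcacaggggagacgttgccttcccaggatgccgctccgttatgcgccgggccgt

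The match begins at base -240 from the start site in Nfe2l2, -92 in Txnrd1, 29 in Srxn1, -134 in Gclm, -56 in Sod1 and -83 in Sod2. For Txnrd1 the printed window lies inside the span of the gene (chr10:82833951-82897724), and so not at its first start site. Beside these windows, the genes had log2 ratios of 0.83 (Nfe2l2), 0.96 (Txnrd1), 0.50 (Srxn1), -0.05 (Gclm), -0.68 (Sod1) and 1.74 (Sod2). Slc7a11 and Nqo1 have a window with no match to the core.

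The superoxide dismutases differed in direction. Sod2, the manganese enzyme of the mitochondrial matrix, had a signal of 5053 in the MSU pool and 1512 in the control pool, 3.34-fold higher. The other 3 probe sets of Sod2 had 2890, 658 and 196 in the MSU pool, against 1228, 245 and 72.7 in the control pool, with log2 ratios of 1.23, 1.43 and 1.43. Sod2 is also known as a gene that NF-kappaB induces. The extracellular enzyme Sod3 was 1.42-fold lower, at 576 in the MSU pool and 817 in the control pool, and its other probe set gave a log2 ratio of -0.05. The cytosolic copper-zinc enzyme Sod1 was at 621 in the MSU pool and 996 in the control pool, 1.60-fold lower, but its probe sets disagreed. A probe set with 489 in the MSU pool and 1060 in the control pool gave -1.12 on the log2 scale, and a dimmer one with 139 and 98.9 gave 0.49. The fourth probe set, with 98.6 in the MSU pool and 59.0 in the control pool, was at least 1.53-fold higher, so that Sod1 has no settled direction over its probe sets. Ccs, the chaperone that loads copper into SOD1, was 1.87-fold lower. The copper carrier Atox1 was 1.46-fold lower on its brightest probe set, with log2 ratios of -0.12 and 0.66 on the other 2 with a fold.

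**Figure D2:**
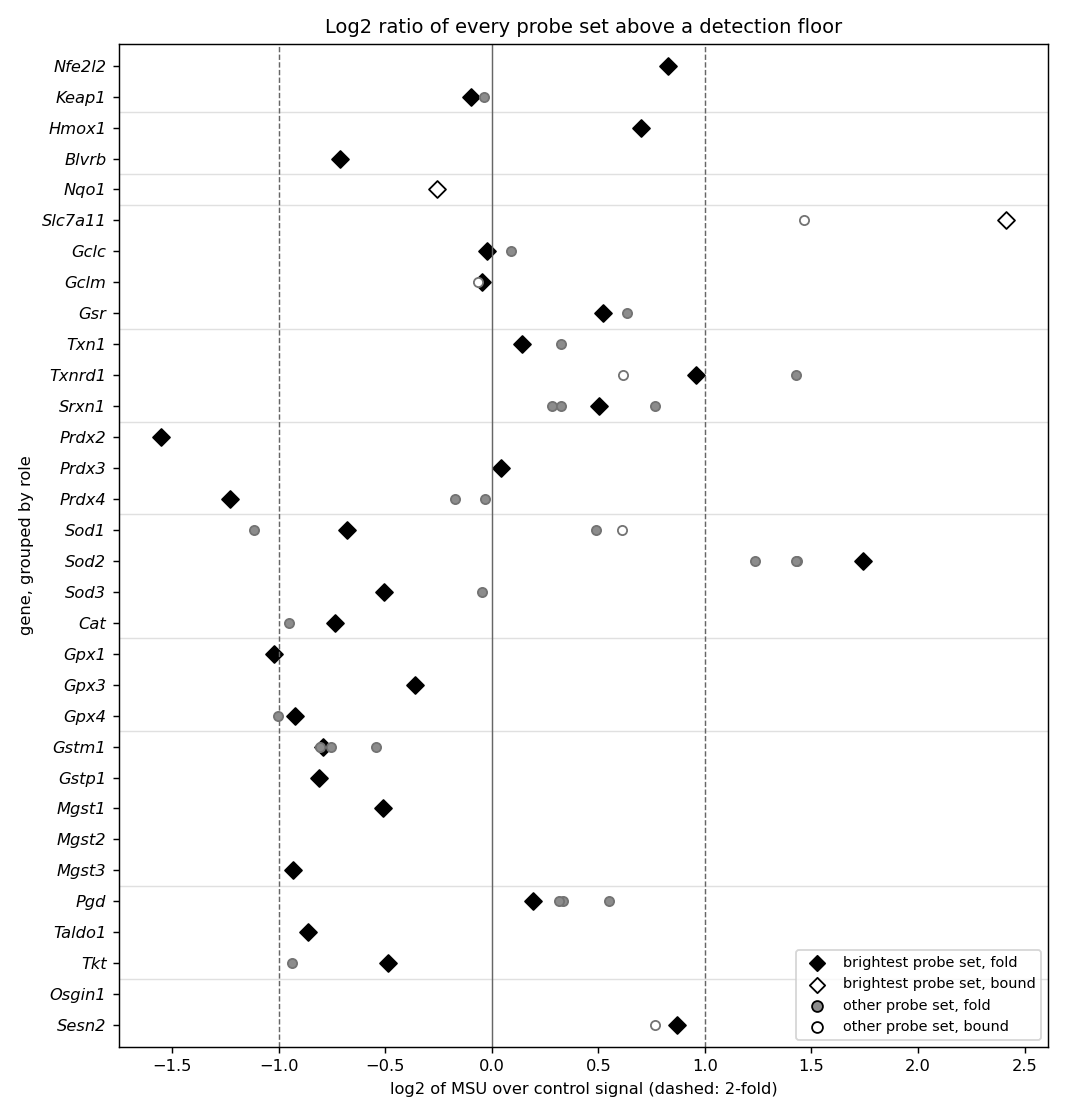
Log2 ratio of MSU to control signal (x axis) of each probe set of the members (y axis, grouped by role) that has a fold (filled) or a bound (open), 1 array per pool, with diamonds for the brightest probe set of a gene and dashed lines at 2-fold. All 4 probe sets of Sod2 lie right of 2-fold, those of Sod1 lie between -1.12 and 0.61, and Mgst2 and Osgin1 have no point.

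The enzymes that remove hydrogen peroxide and lipid peroxides were mostly lower in the MSU pool. Catalase (Cat), the peroxisomal enzyme, was at 676 in the MSU pool and 1125 in the control pool, 1.66-fold lower, and -0.95 on the log2 scale on its other probe set. Gpx1, the cytosolic glutathione peroxidase, was 2.03-fold lower, at 1937 in the MSU pool and 3928 in the control pool, just beyond 2-fold. Gpx4, which reduces lipid peroxides in membranes, was 1.90-fold lower, at 639 in the MSU pool and 1212 in the control pool. Its other probe set was 2.01-fold lower. The plasma enzyme Gpx3 had 2856 in the MSU pool and 3669 in the control pool and was 1.28-fold lower. These 3 peroxidases and Txnrd1 are all selenoproteins, and Txnrd1 was the only one of the 4 that was higher. In the further list of peroxidases and transferases, the endoplasmic reticulum peroxidase Gpx7 was 2.68-fold lower, at 248 in the MSU pool and 665 in the control pool, and Gpx8 1.49-fold lower.

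Among the peroxiredoxins, thiol peroxidases that thioredoxin recharges, 2 were lower and 1 was level. Prdx2, a cytosolic enzyme that is very abundant in red cells, had the lowest ratio of the members with a fold, with 560.3 in the MSU pool and 1641 in the control pool, 2.93-fold lower. Its other probe set lay below both floors. Prdx4, the enzyme of the endoplasmic reticulum, had 397 in the MSU pool and 932 in the control pool on its brightest probe set, 2.35-fold lower. On its other 2 probe sets with a fold it had 422 and 284 in the MSU pool, against 432 and 320 in the control pool, log2 ratios of -0.03 and -0.17. The difference in Prdx4 thus rested on 1 of 3 probe sets. Prdx3, the mitochondrial enzyme, was at 489 in the MSU pool and 475 in the control pool, a log2 ratio of 0.04 whose sign turns when arrays are scaled by their medians or on the spike-ins.

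The 4 glutathione S-transferases of the member list that could be measured were lower in the MSU pool. These enzymes couple glutathione to electrophiles, and the microsomal ones also reduce lipid peroxides. Gstp1 was 1.76-fold lower, at 1079 in the MSU pool and 1896 in the control pool. Gstm1, which shares much sequence with the other mu class genes, was 1.73-fold lower, at 317 in the MSU pool and 548 in the control pool, and its 4 probe sets ranged between -0.81 and -0.54 on the log2 scale. Of the microsomal enzymes, Mgst3 was 1.91-fold lower (191 in the MSU pool, 365 in the control pool) and Mgst1 1.43-fold lower (2180 and 3107 in the MSU and control pools). Mgst2 lay below both floors, at 1.62 in the MSU pool and 56.8 in the control pool, and has no fold. Of 18 further peroxidases and transferases with a probe set, 14 were measured. None was at least 2-fold higher and 4 were at least 2-fold lower, beside 3.70% and 4.29% of all measured genes. Beside Gpx7 the lower ones were Gstz1 (3.91-fold), Gstm2 (2.74-fold) and Gstt1 (2.17-fold). Above 0 were Gstm7 (log2 ratio 0.29) and Gstm3 (0.13), both of which turn under scaling on the spike-ins. The other probe set of Gstm7 pointed lower, with 39.3 in the MSU pool, below the floor, and 74.4 in the control pool. The 4 genes with a bound (Gsta4, Gstk1, Gstt2 and Gstt3) were all lower, by at least 1.37-fold (Gstt2) to at least 1.91-fold (Gstk1). The median log2 ratio of the 10 with a fold was -0.75.

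The pentose phosphate pathway, which regenerates NADPH, was not uniform over its measured steps. Phosphogluconate dehydrogenase (Pgd), an NADPH-making enzyme, was at 1288 in the MSU pool and 1125 in the control pool, and its 4 probe sets had log2 ratios between 0.20 and 0.55. For the brightest of them the direction turns under scaling on the spike-ins, to -0.26. Transaldolase (Taldo1) was 1.82-fold lower, at 451 in the MSU pool and 821 in the control pool. Transketolase (Tkt) was 1.40-fold lower, at 1759 in the MSU pool and 2463 in the control pool, and -0.94 on its other probe set with a fold. Among 10 other sources of NADPH, all measured, none was at least 2-fold higher and 1 was at least 2-fold lower. Over all measured genes the shares were 3.70% and 4.29%. NAD kinase (Nadk), which makes NADP, was 1.76-fold higher, at 1789 in the MSU pool and 1015 in the control pool. Mitochondrial Idh2 was 2.12-fold lower and its cytosolic relative Idh1 1.57-fold lower.

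Of the stress-induced growth regulators, sestrin 2 (Sesn2), which restrains mTORC1 signalling, was at 154 in the MSU pool and 84.4 in the control pool, 1.83-fold higher. Its other probe set had 110.0 in the MSU pool and 60.4 in the control pool, at least 1.70-fold higher. Sesn1, a relative in the further list, was 1.55-fold lower, and its 3 probe sets with a fold lay between -1.17 and -0.63 on the log2 scale. Osgin1, an oxidative stress-induced growth inhibitor, lay below both floors, at 55.9 in the MSU pool and 7.57 in the control pool. In the remaining list of glutathione synthesis and turnover, 12 genes were measured, none was at least 2-fold higher and 1, the glyoxalase Glo1, was 2.08-fold lower. Over all measured genes the shares at 2-fold were 3.70% and 4.29%. The other 2 probe sets of Glo1 with a fold were 1.33- and 1.71-fold lower, so that 2-fold was reached on the brightest only. Its largest ratio upwards was that of Chac1, which breaks down glutathione, at 134 in the MSU pool and 76.4 in the control pool, 1.76-fold higher. The glutaredoxin Glrx was 1.72-fold higher, at 480 in the MSU pool and 280 in the control pool, and 2.43-fold higher on its other probe set, with 522 in the MSU pool and 215 in the control pool. In contrast, Glrx5 and Glrx2, both mitochondrial, were 1.78- and 1.65-fold lower.

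Over all 6 further lists, 69 of 75 genes with a probe set were measured, 2 (2.90%) were higher and 9 (13.0%) lower by 2-fold or more. Their median log2 ratio, over 62 genes with a fold, was -0.28. These shares stand beside the 3.70% and 4.29% of all measured genes. Both higher genes, Maff and Abcc1, and all 9 lower genes have been named, and no gene of the lists of thioredoxin, NADPH, glutathione turnover or transferases was at least 2-fold higher on its brightest probe set, while Glrx was so over the median of both of its probe sets (log2 ratio 1.03). Of 29 genes of these lists with several probe sets with a fold, 22 had them all on the same side of 0 and 7 did not.

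**Figure D3:**
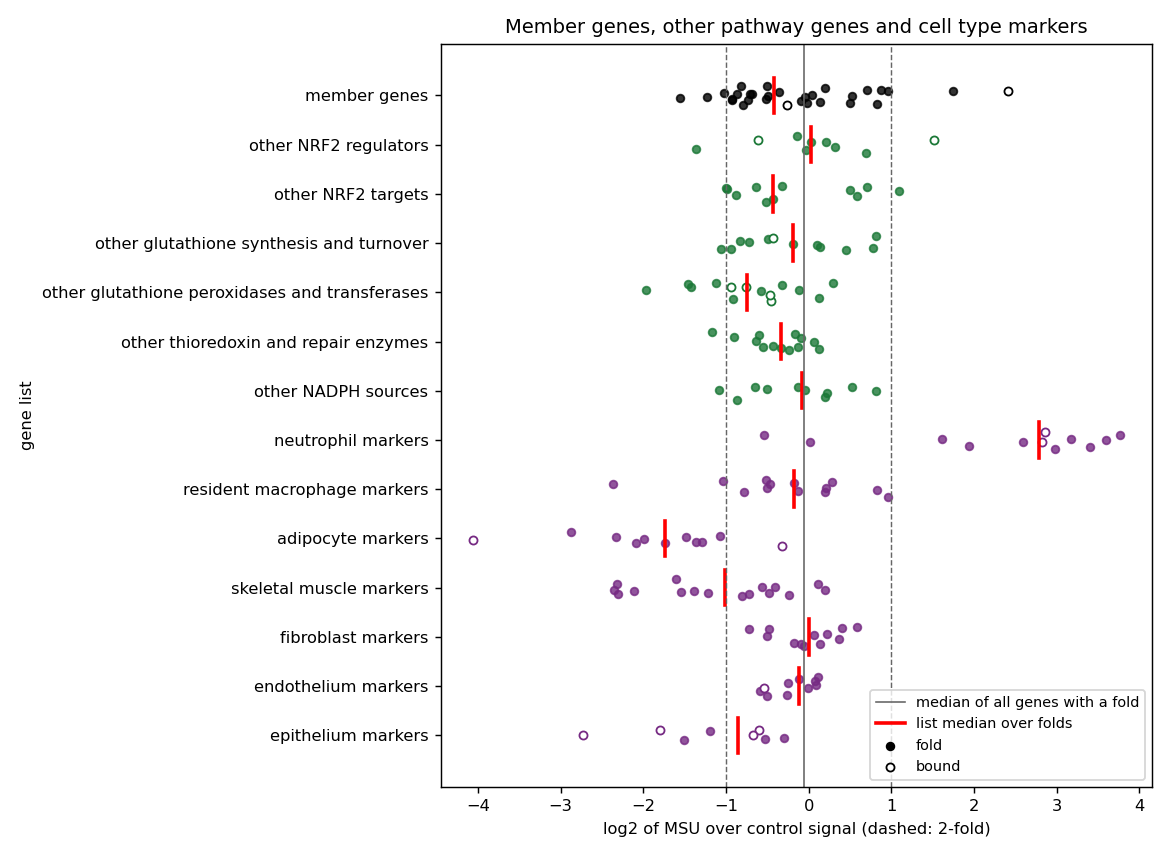
Log2 ratio of MSU to control signal (x axis) of measured genes of the member list (black), the 6 further pathway lists (green) and 7 cell type marker lists (purple), 1 array per pool, with filled points for folds, open points for bounds, red bars for list medians over folds, a grey line for the median of all genes and dashed lines at 2-fold. The member median is -0.42, between the medians of the adipocyte markers (-1.74) and the neutrophil markers (2.79).

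Markers of several cell types also differed between the pools, and their part in the members' ratios was not tested. Fewer cells of a type and less RNA per cell cannot be told apart in whole membranes. Of 12 measured neutrophil markers, 10 were at least 2-fold higher, and the signals of the 15 with a probe set summed to 24999 in the MSU pool and 3165 in the control pool. The calgranulins S100a9 and S100a8 were 12.1- and 10.6-fold higher. In contrast, Ltf was 1.45-fold lower, and Mpo was at 75.4 in the MSU pool and 74.2 in the control pool. Of 11 measured adipocyte markers, 10 were at least 2-fold lower, with sums over 12 genes of 5606 in the MSU pool and 21881 in the control pool, and Adipoq was at 219 in the MSU pool and 1610 in the control pool. Of 16 skeletal muscle markers, 8 were at least 2-fold lower, with sums of 31336 and 52037 in the MSU and control pools, although Acta1 was 1.15-fold higher, a direction that turns under scaling on the spike-ins. Epithelial markers were at least 2-fold lower for 4 of 8 measured, with sums over 10 genes of 747 and 2083 in the MSU and control pools. Resident macrophage markers went both ways, with 2 of 13 measured at least 2-fold lower and none at least 2-fold higher. Trem2 was 5.15-fold and Folr2 2.05-fold lower, whereas Cd163 was 1.94-fold and Mrc1 1.78-fold higher, and the sums over 15 genes were 29986 in the MSU pool and 31110 in the control pool. No fold or bound reached 2-fold among the fibroblast markers, with sums over 12 genes of 68194 and 60966 in the MSU and control pools. None did among the measured endothelial markers, with sums over 12 genes of 2143 and 2566 in the MSU and control pools. Vwf (endothelium) had 22.9 in the MSU pool, below the floor, and 108 in the control pool. It was at least 1.46-fold lower, a bound that leaves 2-fold undecided. Defining markers of the membrane's own cells were present, with Col1a1 at 12669 in the MSU pool and 9550 in the control pool, Adgre1 at 1372 and 1495 in the MSU and control pools, and Pecam1 at 262 and 249. Of the brightest markers of the other lists, Fabp4 and Scd1 (adipocyte) were 3.97- and 5.04-fold lower, Epcam and Krt8 (epithelium) 2.29- and 2.84-fold lower and Ckm (muscle) 1.64-fold lower. Csf1r (macrophage), Col3a1 and Col1a2 (fibroblast) were 1.14-, 1.29- and 1.10-fold higher, directions that turn under scaling on the spike-ins, whereas C1qa (macrophage) was 1.42-fold lower, and Eng and Esam (endothelium) had log2 ratios of -0.59 and -0.01. The 3 erythroid markers with a probe set (Hba-a1, Alas2 and Slc4a1) lay below the floor in both pools.

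The sign of the smaller ratios depends on the scaling of the arrays. Each of the 18 probe sets of the spike-ins gave a brighter signal on the MSU array, and scaling on them moves the median of all genes by -0.46. Under it the direction of Txn1, Prdx3 and Pgd turned, and the other members higher in the MSU pool stayed above 0. Slc7a11 and Sod2 stayed at least 2-fold higher. At least 2-fold lower were 11 members in place of 3, beside 1787 of 11282 measured genes in place of 478 of 11155. Under this scaling Sod2 had a log2 ratio of 1.28, Txnrd1 one of 0.50, Nfe2l2 one of 0.37 and Gsr one of 0.07. Scaling by medians turned Prdx3 alone and quantile normalization Gclc alone among the members.

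**Figure D4:**
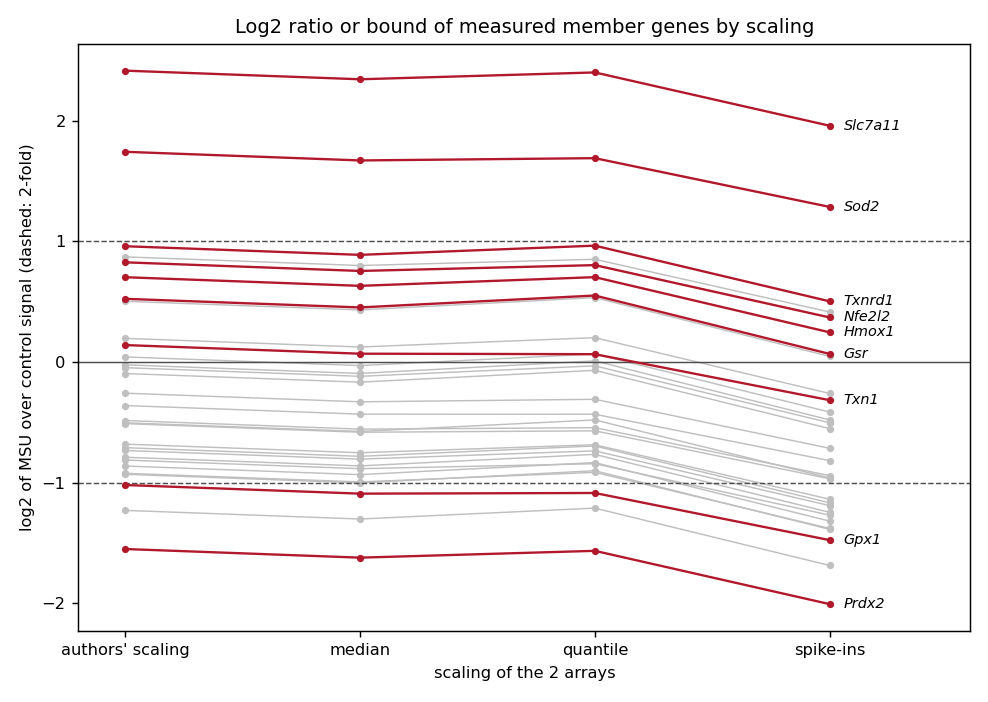
Log2 ratio or bound (y axis) of the 30 measured members, 1 line per gene, under 4 scalings of the 2 arrays (x axis), with 9 genes named and in red and dashed lines at 2-fold. Slc7a11 and Sod2 stay above 2-fold higher under each scaling, while Txn1 lies below 0 under scaling on the spike-ins.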

How the data were processed

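Pooled membrane RNA was measured on 2 arrays, 1 per condition. The deposited intensity of each probe set is a linear signal. The submitters' processing notes name MAS5 without a version. On both arrays the mean after trimming 2% of probe sets at either end is 150.001, so that the authors had scaled both to the same target. These signals were used as deposited. Genes came from the platform annotation, which gives a single gene for 34958 of 45101 probe sets, several for 932 and none for 9211. Symbols were updated by gene identifier with the RefSeq table of GRCm38.p6. The floor ranks signals only, and detection calls of single probe sets were not used. No p-value was computed, as each condition has 1 array, and counts use a fixed size of 2-fold. All members are named, as are other pathway genes at least 2-fold higher or lower or with the largest ratio of their list, and the brightest 2 and the defining genes of each marker list. Some others were named after their values were seen. Members and lists were chosen with earlier results of these data known. Promoter windows were read from a RefSeq table, and the windows printed were chosen after the matches were seen. Alternatives were other scalings (median, quantile, spike-ins), a floor placed at rank 15000 of the signals, no floor, the floors as a pseudocount, the median over probe sets, no _x_at or _s_at probe sets, and sizes of 1.5-fold and 3-fold. Protein sequences were not used here. The steps were tested on simulated data with changes larger than 2-fold planted in bright genes. Changes in dim genes and changes near 2-fold were not simulated. Computations used Python 3.11.15 with pandas 2.3.3 and numpy 2.4.6.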

Additional observations from a re-analysis of the deposited data

How the results depend on the processing

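Counts and medians were recomputed under each alternative, and no result at least 2-fold higher or lower changed direction under any of them. Scaling on the spike-ins or by medians, which shifts log2 ratios by 0.46 and 0.07, could not turn a ratio of that size. Nor could the other floors and sizes, so the outcome was open only for quantile normalization and the probe set rules. The members at least 2-fold higher numbered 2 or 3 under every scaling, floor and probe set rule and at 3-fold, and 6 at 1.5-fold. Those at least 2-fold lower numbered 2 to 4 in place of 3 except under scaling on the spike-ins (11), at 1.5-fold (11) and at 3-fold (0). Of all measured genes, 1787 of 11282 were at least 2-fold lower under scaling on the spike-ins, in place of 478 of 11155. Scaling on the spike-ins, which moves the median of all genes by -0.46, gave members a median log2 ratio of -0.88 in place of -0.42 and the other pathway genes -0.73 in place of -0.28. The share of higher genes among all genes at least 2-fold higher or lower was then 10.1% in place of 46.4%, and 60.3% with the floors as a pseudocount. The members' median was -0.22 over the median of probe sets and -0.23 with the floors as a pseudocount. That of all genes was -0.03 and 0.09 in these settings. Under the other scalings, floors and probe set rules the members' median lay between -0.49 and -0.36. Of the other pathway genes, 1 was at least 2-fold higher in place of 2 under scaling on the spike-ins, with the floor at the 15000th signal and with the floors as a pseudocount, 3 with no floor and over the median of probe sets, 8 at 1.5-fold and 0 at 3-fold. At least 2-fold lower were 26 in place of 9 under scaling on the spike-ins, 16 with no floor (more genes counted), 5 with the floors as a pseudocount, 24 at 1.5-fold and 1 at 3-fold. The bound of Slc7a11 was 2.41 on the log2 scale and 1.58 with the higher floor, under which Sesn2 was at 0.42 in place of 0.87, Maff at 0.68 in place of 1.52 and Chac1 at 0.22 in place of 0.81. Over the median of its probe sets Prdx4 was at -0.17 in place of -1.23, Msrb3 at -0.81 in place of -1.17 and Glo1 at -0.78 in place of -1.05, none of them then 2-fold lower. Without _x_at and _s_at probe sets Sod1 was at -1.12 in place of -0.68. The cause of these differences was not tested. No paired analysis was possible because there is 1 array per condition, and no replicate could be left out. With so few arrays the precision of every value is limited.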

Other observations

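Prdx1, the cytosolic peroxiredoxin that NRF2 is known to activate, is measured by 5 probe sets that the annotation assigns to Prdx1 and Gm21399 together, so that their signal cannot be assigned to either gene. All 5 lay above both floors, with log2 ratios of MSU over control between -0.42 and 0.19 and a median of 0.13. The brightest had a signal of 5201 in the MSU pool and 4739 in the control pool. The ratios above 0, of 3 probe sets, are smaller than the shift of 0.46 that scaling on the spike-ins brings and turn under it. These values were set beside no count of members.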
